A study of Mus musculus with 12 samples.

Results

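The Dppa family and naive-state markers described here are 8 genes of mouse embryonic stem cells: Dppa2, Dppa3, Dppa4, Dppa5a, Utf1, Spic, Triml1 and Zscan4c. They were chosen by name, with their values in all 3 groups known, so the levels and differences below are a description and carry no p-value. All 8 were on the array, and all 8 were among the 20875 genes that passed the filter on dim probes. They were read by 11 probes, since Dppa5a, Spic and Zscan4c have 2 probes each. Arrays were made from the stem cells (mESC) and from cardiac differentiation cultures after 9 days and after 14 days, 4 arrays in each group. Differentiation was carried out on plates coated with crosslinked ELP, an elastin-like polypeptide, in medium without LIF for 2 days and then in GMEM with serum replacement (KSR), NEAA and β-ME for the next 12 days. The labels repeat that culture text for every sample, do not give the day on which the mESC samples were taken, and call the cells of all 3 groups embryonic stem cells. Agilent arrays with a single dye, Cy3, read cRNA made from total RNA.

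Dppa stands for developmental pluripotency associated, a name given to genes active in pluripotent cells and early embryos that do not all share a protein family. Dppa2 and Dppa4 are SAP-domain proteins that bind chromatin as a pair, and Dppa3, also called Stella or PGC7, binds Uhrf1 and limits maintenance DNA methylation. Dppa5a is a KH-domain protein related to Ooep and Khdc3, which are best known from oocytes. Utf1 is a chromatin-associated protein, Spic is an Ets-family transcription factor that is also needed for red pulp macrophages of the spleen, and Triml1 is a tripartite-motif-like protein. Zscan4c belongs to a cluster of SCAN-domain zinc finger genes that switch on for short periods in the rare stem cells that resemble the early cleavage embryo, called 2-cell-like cells here.

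Sequences at the start sites are shown for the members that RefSeq's promoter table of GRCm38.p6 held, because members that fell together can be set side by side there. The table held 4 of the 8 members, Utf1, Spic, Triml1 and Zscan4c. Each window spans 300 bases, 250 before and 50 after the start, and the capitals mark CG dinucleotides. The windows lie at chr7:139943606-139943905 on the plus strand for Utf1, chr10:88682974-88683273 on the minus strand for Spic, chr8:43141437-43141736 on the minus strand for Triml1 and chr7:11005495-11005794 on the plus strand for Zscan4c.
Utf1: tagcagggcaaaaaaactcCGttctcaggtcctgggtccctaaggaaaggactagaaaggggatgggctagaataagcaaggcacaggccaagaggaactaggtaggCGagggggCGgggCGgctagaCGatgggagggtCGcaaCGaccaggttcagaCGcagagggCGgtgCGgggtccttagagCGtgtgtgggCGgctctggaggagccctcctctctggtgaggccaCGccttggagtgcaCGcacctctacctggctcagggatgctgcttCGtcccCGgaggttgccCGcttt
Spic: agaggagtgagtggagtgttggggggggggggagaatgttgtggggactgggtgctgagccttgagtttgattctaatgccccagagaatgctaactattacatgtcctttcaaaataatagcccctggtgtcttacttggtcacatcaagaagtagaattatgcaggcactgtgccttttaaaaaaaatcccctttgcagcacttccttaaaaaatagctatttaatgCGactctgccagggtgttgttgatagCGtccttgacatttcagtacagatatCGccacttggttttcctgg
Triml1: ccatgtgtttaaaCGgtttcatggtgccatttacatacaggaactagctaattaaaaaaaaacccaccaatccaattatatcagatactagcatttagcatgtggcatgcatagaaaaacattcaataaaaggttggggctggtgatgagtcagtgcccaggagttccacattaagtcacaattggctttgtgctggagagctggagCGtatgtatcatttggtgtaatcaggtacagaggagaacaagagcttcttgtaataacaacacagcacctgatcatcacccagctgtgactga
Zscan4c: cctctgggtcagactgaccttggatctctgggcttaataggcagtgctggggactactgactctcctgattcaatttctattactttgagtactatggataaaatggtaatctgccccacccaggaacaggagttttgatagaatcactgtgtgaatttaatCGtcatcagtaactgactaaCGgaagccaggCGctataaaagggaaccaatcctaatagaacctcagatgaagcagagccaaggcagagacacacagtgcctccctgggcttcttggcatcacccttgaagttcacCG

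The Utf1 window was the one of the 4 that is rich in CG dinucleotides. It held 17 of them at a GC content of 62.0%, and 68.6% of the 32851 promoters in the table held fewer. The Spic, Triml1 and Zscan4c windows held 3, 2 and 4, and 23.3%, 14.1% and 31.4% of all promoters held fewer. The median promoter held 7. Of 7 short motifs searched on both strands, GGGCGG (the GC box) occurred 4 times in the Utf1 window, the first at -138 from the start, and neighbouring matches of this motif overlap. It was found in 35.7% of all promoters. TATAAA, the TATA box, occurred once in the Zscan4c window at -54, and 13.6% of promoters held it. AAGGTCA, the half-site bound by Esrrb and related nuclear receptors, occurred once in the Zscan4c window at -236, and 4.72% of promoters held it. Matches of different motifs did not overlap. The octamer core ATGCAAA, held by 4.63% of promoters, was in none of the 4 windows. The same was true of the Sox core ATTGTT, held by 10.7%. It was also true of the Zscan4 motif TGCACAC, held by 4.40%, and of the Klf core GGGTGTG, held by 7.95%.

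Levels are given as log2 of the processed signal minus the log2 of the array's 75th percentile, so 0 is the 75th percentile of that array. A level is compared between groups for the same probe only. The 75th percentile signal was 346.8 to 386.4 in mESC, 394.9 to 438.5 at day 9 and 462.7 to 507.9 at day 14. By the flag of the extraction software, 59.5% to 67.9% of probes were well above background, and 0 spots were saturated. Arrays of the same group correlated at 0.9893 to 0.9963 over genes, and arrays of different groups at 0.797 to 0.9569. All 4 arrays of a group came from the same slide and scan, so group, slide and scan cannot be told apart. The labels do not say that replicates came from separate cultures, so every SD, SE and p-value covers only how these arrays scatter, which may be technical.

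The labels of the groups were checked against 5 markers per cell type, which were chosen with earlier results of these data known. The mESC markers, Pou5f1, Nanog, Sox2, Zfp42 and Klf4, had a mean level of 5.28 to 5.32 in mESC, -0.51 to -0.07 at day 9 and -1.08 to -0.96 at day 14. All 5 stayed well above background on every array of all 3 groups. The cardiomyocyte markers, Myh6, Tnnt2, Actc1, Myl7 and Nkx2-5, had a mean level of -1.66 to -1.53 in mESC, 4.12 to 5.30 at day 9 and 3.95 to 4.43 at day 14. The fibroblast markers, Col1a1, Col3a1, Postn, Dcn and Thy1, had a mean level of -4.50 to -3.99 in mESC, 2.91 to 3.68 at day 9 and 4.67 to 4.82 at day 14. Within this mean Thy1 went the other way, with differences of -4.79 ± 0.15 at day 9 and -1.20 ± 0.15 at day 14 from mESC. Macrophage markers were at -5.76 to -5.21 in mESC, -4.94 to -4.42 at day 9 and 1.18 to 1.47 at day 14. Of these, Adgre1, Csf1r, Tyrobp and C1qa were not well above background on any mESC array. The remaining marker, Cd68, was lower at day 9 than in mESC (-4.11 ± 0.07) and was not called at day 14 (0.51 ± 0.07). The markers of primitive and visceral endoderm, Gata6, Sox17, Sox7, Afp and Ttr, had a mean level of -5.16 to -4.92 in mESC, 1.25 to 1.57 at day 9 and 1.37 to 1.62 at day 14. The trophoblast markers, Cdx2, Elf5, Eomes, Hand1 and Tfap2c, were at -3.20 to -2.94, -2.16 to -1.90 and -2.63 to -2.47 in the same order. This mean joins opposite changes, since at day 9 Cdx2 (6.04) and Hand1 (7.41) were higher than in mESC. Eomes (-3.80) and Tfap2c (-3.45) were lower, and Elf5 was not called. The 4 germ cell markers tested, Ddx4, Dazl, Nanos3 and Mael, were at -0.27 to -0.22 in mESC, then -5.10 to -4.62 at day 9 and -4.82 to -4.61 at day 14. Sycp3 was not well above background on any array. Mean levels of cardiomyocyte, fibroblast and endoderm markers were thus higher at both days than in mESC, and that of macrophage markers mainly at day 14. Their part in the members' values was not tested. In such bulk RNA, fewer cells of a type and less RNA per cell cannot be told apart.

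All 8 members were lower on every day 9 array and on every day 14 array than on every mESC array. With normexp, another background correction that adds a fixed offset to every signal, this held for all 8 at day 9 and for 7 at day 14, where the Utf1 arrays overlapped those of mESC. The median difference of the 8 was -4.78 at day 9 and -5.58 at day 14, against medians of -0.16 and -0.19 over all 20875 genes. Over all genes, every array was lower in 44.9% and higher in 33.8% at day 9, and lower in 47.7% and higher in 36.2% at day 14. Genes were called in the limma fit at an adjusted p under 0.05 and a log2 difference of at least 1 in size, and "rose" and "fell" below refer to such calls. In either direction 41.0% of genes were called at day 9 and 46.8% at day 14. The members were chosen on these contrasts, so nothing is read from their count. On the signals as read, the difference ran from -1.20 (Utf1) to -9.53 (Spic) at day 9 and from -1.15 (Utf1) to -10.21 (Spic) at day 14. For Utf1 and Dppa3, the members with the smallest differences at day 9, 17.2% and 16.1% of all genes lay lower still.

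**Figure D1:**
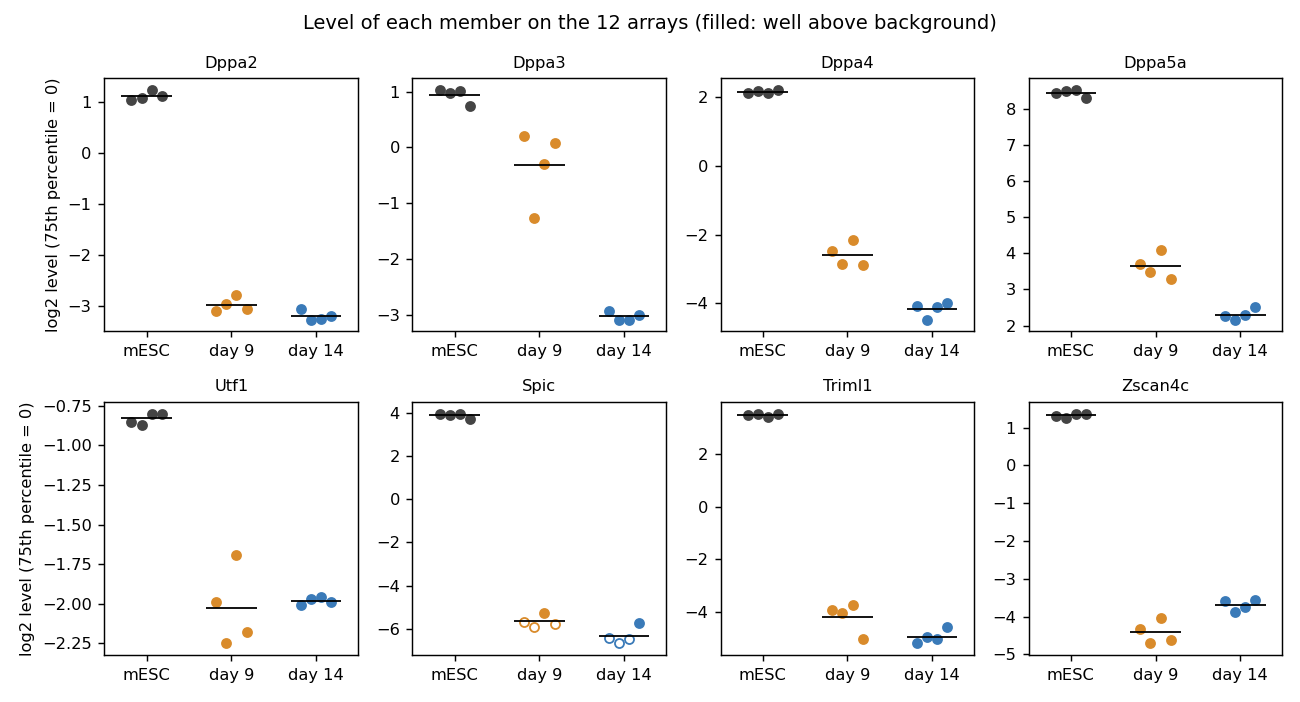
Level of each of the 8 genes on the 12 arrays, as log2 of the processed signal with the 75th percentile of the array at 0; each panel has its own vertical axis. Points are arrays, lines are means of 4 arrays, and open points are not well above background. All mESC arrays lie above all day 9 and day 14 arrays in every panel, and Dppa3 has the widest day 9 group.

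**Figure D2:**
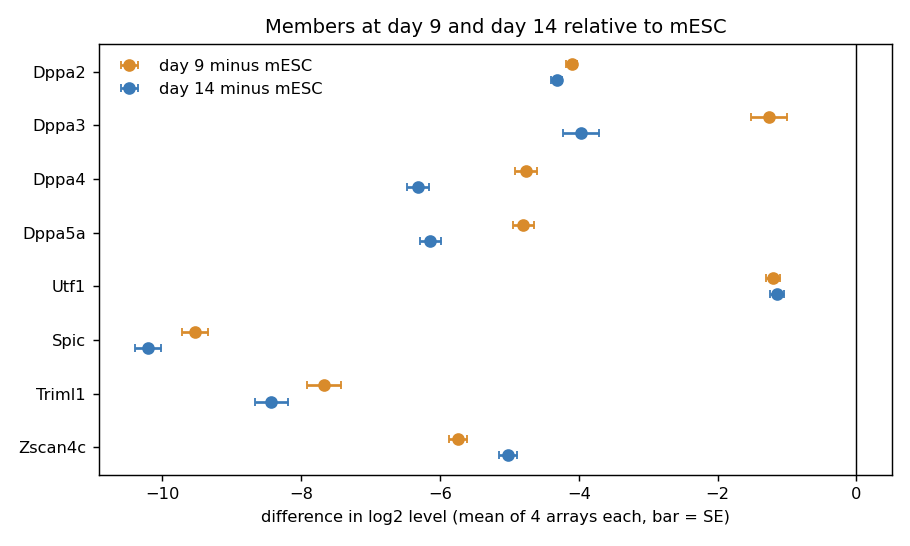
Difference in log2 level of each gene at day 9 and at day 14 from mESC, with the standard error of the limma fit (4 arrays per group). The differences run from -1.20 to -9.53 at day 9 and from -1.15 to -10.21 at day 14.

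The chromatin-binding pair of Dppa2 and Dppa4 was far below mESC on both days. Dppa2 had levels of 1.05, 1.08, 1.24 and 1.13 on the mESC arrays, -3.10, -2.97, -2.78 and -3.05 on the day 9 arrays and -3.05, -3.27, -3.26 and -3.20 on the day 14 arrays. Both days lay far below mESC and overlapped each other through day 14 replicate 1. The difference from mESC was -4.10 ± 0.08 at day 9 and -4.32 ± 0.08 at day 14 (log2, SE, n = 4 per group), or 17.1-fold and 20.0-fold lower. Between the days it was -0.22 ± 0.08, and the direction turned to 0.22 with normexp. With that correction Dppa2 was 8.02-fold lower at day 9 and 6.90-fold lower at day 14 than in mESC.

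Dppa4 had levels of 2.13, 2.17, 2.11 and 2.21 on the mESC arrays, -2.47, -2.87, -2.17 and -2.90 on the day 9 arrays and -4.09, -4.48, -4.11 and -3.99 on the day 14 arrays. The 3 groups did not overlap. The difference from mESC was -4.76 ± 0.16 at day 9 and -6.32 ± 0.16 at day 14, or 27.1-fold and 79.9-fold lower, and 15.2-fold and 17.9-fold lower with normexp. Between the days it was -1.56 ± 0.16, but -0.24 with normexp, where the 2 days overlapped.

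Dppa3 was the member with the larger share of its fall after day 9. Its levels were 1.03, 0.97, 1.01 and 0.74 on the mESC arrays, 0.20, -1.27, -0.29 and 0.07 on the day 9 arrays and -2.93, -3.09, -3.09 and -3.01 on the day 14 arrays. Day 9 replicate 2 lay below the other day 9 arrays, and the 3 groups did not overlap. The difference at day 9 was -1.26 ± 0.26, or 2.39-fold lower, and it was -0.94 without day 9 replicate 2. At day 14 it was -3.97 ± 0.26, or 15.7-fold lower, and 5.98-fold lower with normexp. The difference between the days was -2.71 ± 0.26 (-1.53 with normexp, where the days overlapped), and 0.196% of all genes fell further between the days. The day 9 arrays had an SD of 0.67, larger than that of 96.3% of genes, against a median SD of 0.14 over genes at that day. The SDs of Dppa3 at day 14 and in mESC were 0.08 and 0.13, so the wide spread was seen at day 9.

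Dppa5a, the KH-domain member, was read by a pair of probes. The probe with the higher mean had levels of 8.44, 8.50, 8.52 and 8.30 on the mESC arrays, 3.70, 3.49, 4.08 and 3.28 on the day 9 arrays and 2.27, 2.16, 2.28 and 2.50 on the day 14 arrays. Its processed signal was 122000 to 134000 in mESC, 3850 to 6940 at day 9 and 2130 to 2660 at day 14, so even at day 14 it was above the 75th percentile of the array. The other probe had levels of 7.03, 7.20, 7.11 and 6.94 on the mESC arrays, 1.18, 1.07, 1.59 and 0.81 on the day 9 arrays and -0.19, -0.27, -0.22 and -0.02 on the day 14 arrays. Neither probe had groups that overlapped. The first probe gave -4.80 ± 0.15 at day 9 and -6.14 ± 0.15 at day 14 against mESC, or 27.9-fold and 70.5-fold lower. The other probe gave -5.91 ± 0.14 and -7.25 ± 0.14, or 60.1-fold and 152-fold lower. The size of the fall from mESC thus depended on the probe, while both gave -1.34 between the days. Dppa5a was also the member whose days stayed apart with normexp (-1.44). Closely similar copies of Dppa5a exist in the mouse genome, and the array reading may include their RNA.

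Utf1 had the smallest difference from mESC at both days. It had levels of -0.85, -0.87, -0.80 and -0.80 on the mESC arrays, -1.99, -2.25, -1.69 and -2.18 on the day 9 arrays and -2.01, -1.97, -1.96 and -1.99 on the day 14 arrays. On the processed signals both days lay below mESC, the day 14 arrays fell inside the day 9 range, and all 12 arrays were well above background. The difference from mESC was -1.20 ± 0.10 at day 9 and -1.15 ± 0.10 at day 14, or 2.30-fold and 2.22-fold lower, and -0.86 and -0.67 with normexp, both under 1 in size, where the day 14 arrays overlapped those of mESC. Between the days it was 0.05 ± 0.10, and its sign turned with the scaling (-0.14 to 0.19 over the alternatives).

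Spic had the largest differences from mESC on the signals as read. The probe with the higher mean had levels of 3.92, 3.90, 3.96 and 3.73 on the mESC arrays, -5.68, -5.90, -5.28 and -5.75 on the day 9 arrays and -6.44, -6.67, -6.47 and -5.74 on the day 14 arrays. After mESC it was well above background on 1 day 9 array, replicate 3, and 1 day 14 array, replicate 4, and the days overlapped at that day 14 array. Its processed signal was 5130 to 5550 in mESC, against 7.09 to 10.5 at day 9 and 4.68 to 8.80 at day 14. The difference from mESC was -9.53 ± 0.19 at day 9 and -10.21 ± 0.19 at day 14. Both sizes rest on later signals that were mostly not well above background. With normexp they were -6.47 and -6.07, and at day 14 Dppa5a, at -6.19, then had the larger one.

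The other Spic probe had levels of 2.76, 2.75, 2.75 and 2.66 on the mESC arrays. It was not well above background on any later array, with levels of -7.20, -7.78, -7.07 and -6.48 on the day 9 arrays and -7.64, -7.83, -7.56 and -7.81 on the day 14 arrays. Measured against the dimmest signal well above background, it was at least 356-fold lower at day 9 and at least 407-fold lower at day 14 than in mESC. Spic was the member that passed the filter through mESC alone. Between the days the probes gave -0.67 ± 0.19 and -0.58 ± 0.21, at a level where the order of the days was not measured on most arrays, and the first probe gave 0.40 with normexp.

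Triml1 followed Spic in size on the processed signals. It had levels of 3.48, 3.53, 3.42 and 3.54 on the mESC arrays, -3.92, -4.04, -3.73 and -5.04 on the day 9 arrays and -5.19, -4.93, -5.04 and -4.58 on the day 14 arrays. Day 9 replicate 4 lay among the day 14 arrays and the other 3 day 9 arrays above them, and all 12 were well above background. The difference from mESC was -7.67 ± 0.24 at day 9 and -8.43 ± 0.24 at day 14, or 204-fold and 345-fold lower, at ranks 31 and 7 of all falls. With normexp these were 50.8-fold and 42.4-fold lower. Between the days it was -0.75 ± 0.24, or 0.26 with normexp. The SD of 0.58 at day 9 was larger than that of 94.6% of genes.

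Zscan4c was the member that was higher at day 14 than at day 9. The probe with the higher mean had levels of 1.32, 1.25, 1.35 and 1.37 on the mESC arrays, -4.32, -4.71, -4.03 and -4.61 on the day 9 arrays and -3.60, -3.88, -3.75 and -3.57 on the day 14 arrays. Every array was well above background and the 3 groups did not overlap. The difference from mESC was -5.74 ± 0.13 at day 9 and -5.02 ± 0.13 at day 14, or 53.4-fold and 32.4-fold lower, and 13.2-fold and 8.91-fold lower with normexp. Day 14 was higher than day 9 by 0.72 ± 0.13, or 1.65-fold, and the difference stayed positive, at 0.50 to 1.51, under all 19 alternatives. With normexp the days overlapped.

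The other Zscan4c probe had levels of -0.38, -0.49, -0.29 and -0.28 on the mESC arrays, -6.56, -6.29, -7.28 and -7.80 on the day 9 arrays and -4.92, -5.71, -5.38 and -2.71 on the day 14 arrays. It was not well above background on any day 9 array and was so on 3 of the 4 day 14 arrays, all but replicate 2. Day 14 replicate 4 stood far above the other 3. This probe was at least 41.9-fold lower at day 9 than in mESC, 20.0-fold lower at day 14 than in mESC, and at least 2.10-fold higher at day 14 than at day 9. The difference between the days was 2.30 ± 0.57 on the signals as read, and 1.65 without day 14 replicate 4. Without that array this probe was 31.5-fold lower at day 14 than in mESC and at least 1.33-fold higher than at day 9. The Zscan4 genes are near-identical copies, so neither probe can be assigned to Zscan4c alone.

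**Figure D3:**
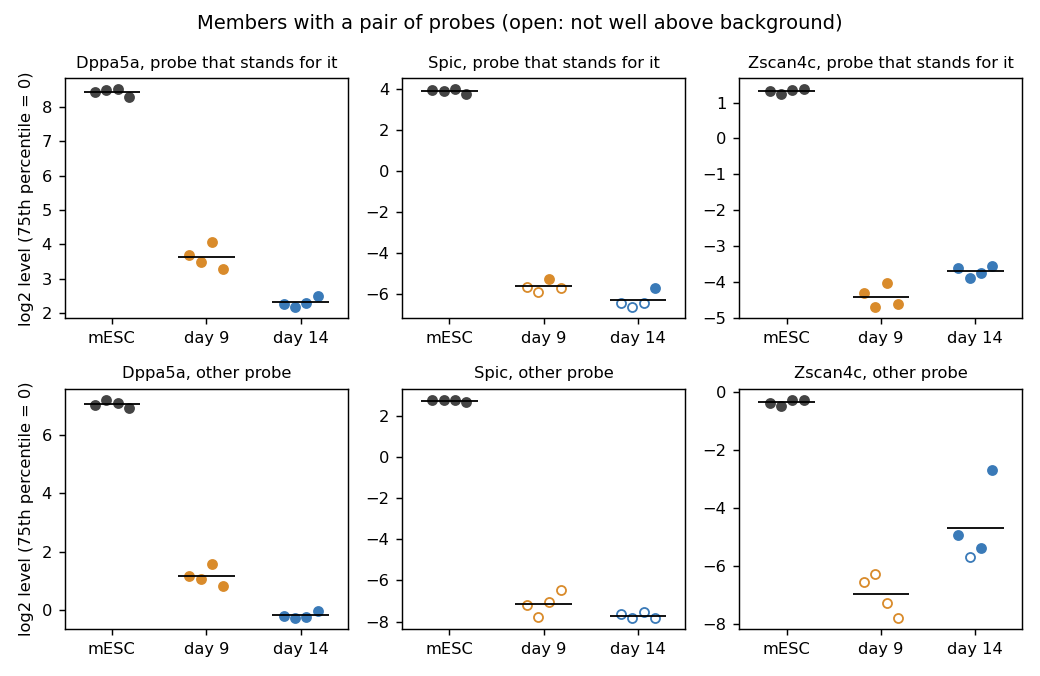
Levels of the members with a pair of probes, Dppa5a, Spic and Zscan4c, on the 12 arrays, as log2 of the processed signal with the 75th percentile at 0; the probe with the higher mean is in the upper row. Lines are means of 4 arrays and open points are not well above background. Both probes of each gene are lower on every day 9 and day 14 array than on every mESC array, and the other Zscan4c probe has its highest day 14 array at -2.71.

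Between day 14 and day 9, 3 members (Dppa3, Dppa4 and Dppa5a) were lower on every array, 1 (Zscan4c) was higher on every array and 4 overlapped. Over all genes 34.1% were lower and 23.2% higher on every array, 13.8% were called in either direction by limma, and the choice of members used this contrast too. The median difference of the 8 was -0.71, against -0.09 over all genes. With normexp the arrays of 1 member, Dppa5a, stayed apart. The overlaps of Dppa2, Spic and Triml1 each came from 1 array: day 14 replicate 1 for Dppa2, day 14 replicate 4 for Spic and day 9 replicate 4 for Triml1.

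Single arrays were high across several members at once. Day 9 replicate 3 was the highest day 9 array for 7 of the 8 members, all but Dppa3, while it was the highest for 18.2% of all genes and for 5 of the 18 other genes of the naive network that were tested. Day 14 replicate 4 was the highest day 14 array for 5 of the 8 members and for 32.7% of all genes. The 8 members share the same 12 arrays and are not replicates of a group.

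Among pairs of members, profiles over the 12 arrays were compared by the root mean square (RMS) difference after subtracting each gene's mESC mean. Dppa4 and Dppa5a were the closest pair, at 0.15, and Utf1 and Spic the farthest, at 7.11. Spic and Triml1, the members with the largest falls, differed by 1.52. The closeness of Dppa4 and Dppa5a depended on the probe and on the background correction. By the other Dppa5a probe they differed by 0.86, and with normexp by 1.41, where Dppa2 and Zscan4c were the closest pair at 0.47.

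Outside the members, 15545 named genes were ranked by the same measure. The genes nearest to Dppa4 were Lefty2 (0.35), Slc22a7 (0.36) and Nodal (0.38), and those nearest to Dppa5a were Lefty2 (0.29), Chmp4c (0.30) and Nodal (0.31). Slc22a7 was well above background on 1 of the 4 day 14 arrays, so its distance rests partly on dim signals. Nodal is a secreted signalling ligand and Lefty2 its secreted inhibitor. Lefty2 had differences of -5.16 at day 9 and -6.13 at day 14 from mESC, and Nodal of -5.08 and -5.98. Dppa2 was nearest to Saa1 (0.13), Vpreb1 (0.14) and Clgn (0.16). Utf1 was nearest to Bcat2, Pcgf2 and Dcaf12, each at 0.12. Each gene was read here by its brightest tested probe, and other probes of Saa1 and Dcaf12 gave -8.49 and -0.28 at day 14 against mESC. The other Bcat2 probes gave -1.16 and -0.33.

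For Dppa3 the nearest genes lay at larger distances than these. They were Tcf7 (0.46), Padi3 (0.52) and Atf7ip2 (0.54). Atf7ip2 differed from mESC by -1.93 at day 9 and -3.80 at day 14, but by -3.51 and -4.73 with its other probe. By both probes the day 9 share of the day 14 difference was larger for Atf7ip2 than for Dppa3, and more so by the other probe. Tcf7, a transcription factor of the Wnt pathway, differed from mESC by -1.64 at day 9 and -3.62 at day 14. Triml1 was nearest to Ooep (0.20), the maternal-effect relative of Dppa5a, followed by Fam25c (0.35) and Ly6g6e (0.39). Zscan4c was nearest to Gm8267 (0.25), Slc1a1 (0.25), a glutamate transporter, and Liph (0.27). Gm8267 was well above background on 1 of the 4 day 9 arrays, so its distance rests partly on dim signals. At day 14 against mESC the other Ly6g6e probe gave -5.24, against -8.03 by the probe ranked. The other Slc1a1 probe gave -3.93, against -5.30. Spic was nearest to Wdr95, Cd3d and Ldhc. These 3 genes were not well above background on any later array, and Spic was well above it on 2 of those arrays, so no distance is given.

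Several members lie beside other genes of pluripotent and germ cells, in the annotation's order of coding genes. The neighbours were looked up after earlier values had been seen. On chromosome 16 the order is Dppa4, Dppa2, Morc1, where Morc1 is an ATPase required for transposon silencing in the male germ line. Morc1 had levels of 4.44 to 4.48 in mESC, -2.68 to -1.96 at day 9 and -4.04 to -3.75 at day 14, with no overlap. It fell by 6.67 ± 0.14 at day 9 (limma, adjusted p = 2e-12) and fell by 8.40 ± 0.14 at day 14 (adjusted p = 3.08e-13) against mESC. It also fell between the days, by 1.72 ± 0.14 (adjusted p = 9.39e-07). Within this run of 3 genes Dppa4 and Morc1 were thus lower at day 14 than at day 9 on the signals as read. The Dppa2 arrays overlapped between the days, and with normexp those of Dppa4 did too.

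On chromosome 6 Dppa3 lies between Gdf3, a TGF-beta family ligand, and Nanog, the homeodomain factor of the naive state. Nanog fell by 7.24 ± 0.11 at day 9 and fell by 8.07 ± 0.11 at day 14 (limma, adjusted p = 3.25e-13 and 1.24e-13), when Dppa3 differed by -1.26 and -3.97. Gdf3 fell by 6.18 ± 0.16 at day 9 (adjusted p = 1.09e-11) and fell by 4.97 ± 0.16 at day 14 (adjusted p = 5.01e-11). Gdf3 was higher at day 14 than at day 9 by 1.21 ± 0.16 (adjusted p = 4.53e-05), a call lost with normexp, whereas Nanog was at -0.83 ± 0.11, short of the fold threshold. On the signals as read, Dppa3 and Nanog were thus lower and Gdf3 higher at day 14 than at day 9. The difference between the courses of these 3 adjacent genes was not tested.

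On chromosome 9 Dppa5a lies between Gsta2, a glutathione transferase, and Ooep. Ooep had levels of 4.51 to 4.62 in mESC, -3.82 to -2.33 at day 9 and -3.83 to -3.43 at day 14. It fell by 7.72 ± 0.24 at day 9 (limma, adjusted p = 6.92e-11) and fell by 8.29 ± 0.24 at day 14 (adjusted p = 2.97e-11), and the days did not differ past the threshold (-0.57 ± 0.24, adjusted p = 0.0618). Gsta2 was not well above background on any day 9 array, and at day 14 it differed from mESC by 0.10 ± 0.10 (adjusted p = 0.363). For the other members, Kndc1 beside Utf1 fell by 1.75 ± 0.25 at day 9 and fell by 1.46 ± 0.25 at day 14 (limma, adjusted p = 5.06e-05 and 0.000208), and its other probe gave -0.47 and -0.31. Mybpc1 beside Spic fell by 2.16 ± 0.22 at day 9 and fell by 2.44 ± 0.22 at day 14 (limma, adjusted p = 1.97e-06 and 5.83e-07). At day 9 Kndc1 was well above background on 3 of the 4 arrays and Mybpc1 on 2 of the 4. At day 14 Mybpc1 was so on 3 of the 4, so the sizes for both genes rest partly on dim signals. Frg1 beside Triml1 was at -0.46 ± 0.04 and -0.88 ± 0.04, under the fold threshold. Triml2, Zscan4b and Zscan4d, the other neighbours with a shared family name, were not tested here.

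**Figure D4:**
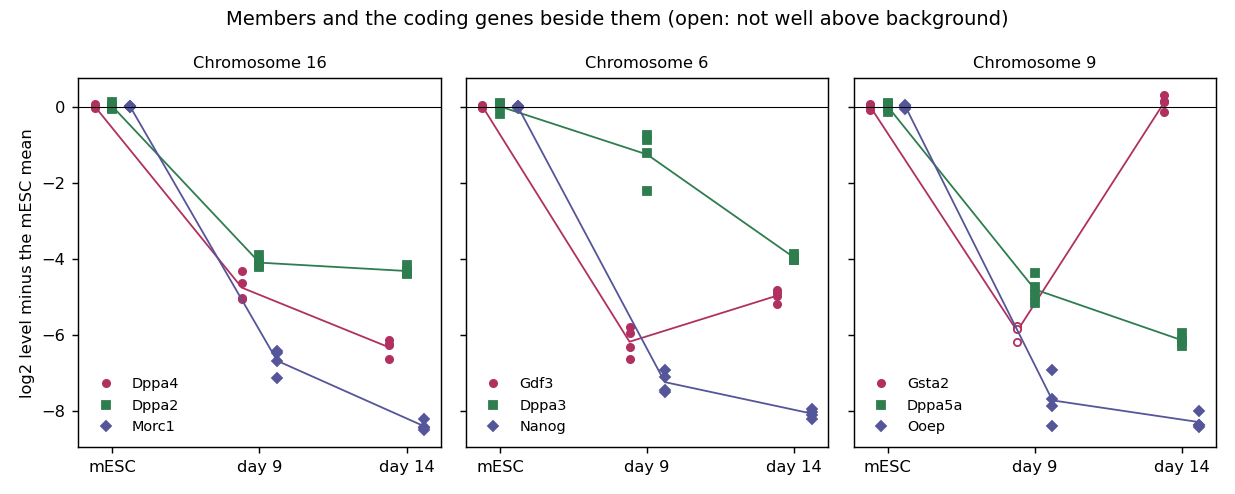
Log2 level minus the gene's own mESC mean on each array, for members and the coding genes beside them on chromosomes 16, 6 and 9; lines join group means and open points are not well above background. Morc1 and Nanog end at -8.40 and -8.07, Dppa3 is still at -1.26 at day 9, and Gsta2 returns to 0.10 at day 14 from below background at day 9.

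The other genes of the naive network fell with the members. Among them are the 5 mESC markers used above to check the groups, so those genes are not a separate reading. This list and those below were written with earlier results of these data known. Of 18 tested, 17 fell and 0 rose at day 9 against mESC, and 17 fell and 0 rose at day 14, and at an unadjusted limma p under 0.05 the gene counts were 18 lower and 0 higher in both. Over all genes 21.0% fell and 20.1% rose at day 9, and 24.0% fell and 22.8% rose at day 14. The list's median was -5.51 in both comparisons, against -0.16 and -0.19 over all genes. Esrrb, an orphan nuclear receptor, fell by 8.12 ± 0.13 at day 14, Pou5f1 (Oct4) fell by 7.87 ± 0.21 and Zfp42 (Rex1), a zinc finger factor, fell by 7.66 ± 0.12 (limma, adjusted p = 3.08e-13, 1.38e-11 and 2.85e-13). The gene that was not called was Klf2, with -0.65 ± 0.07 at day 14, and it was named after its values were seen. Its other probe gave -4.21 ± 0.11, so the Klf2 value depended on the probe.

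Between day 14 and day 9, 4 of these 18 genes fell and 1 rose, where 3.60% of all genes fell and 10.2% rose, and the list's median was -0.62 against -0.09. Sall4, a zinc finger factor, fell by 2.69 ± 0.13 (limma, adjusted p = 1.84e-08), but its other probe was at -0.09 ± 0.07. Pou5f1 fell by 2.04 ± 0.21 (adjusted p = 7.85e-06) and Esrrb fell by 1.76 ± 0.13 (adjusted p = 6.15e-07). With normexp 2 genes fell and 0 rose.

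The list for the 2-cell-like state, the state that Zscan4c marks, held 23 genes, of which 12 were on the array and 10 were tested. No other Zscan4 gene and no Dux was among those tested, so the counts cover a part of the list. Of the 10 tested genes 9 fell and 1 rose at day 9 against mESC, and 8 fell and 2 rose at day 14. The medians were -4.08 and -3.51. Of all genes 21.0% fell and 20.1% rose at day 9, and 24.0% fell and 22.8% rose at day 14. Pramel7 and Pramel6 were not well above background on any later array and were at least 30.7-fold and 13.7-fold lower at day 14 than in mESC. Usp17la, a deubiquitinase gene, fell by 4.71 ± 0.12 and Tcstv1 fell by 4.69 ± 0.41 at day 14 (limma, adjusted p = 1.26e-11 and 4.6e-07). Tdpoz1 was called higher on both days (adjusted p = 2.5e-05 and 0.000152) by a probe that was not well above background in mESC, at least 1.15-fold at day 9. Sp110 fell by 1.47 ± 0.18 at day 9 and rose by 1.54 ± 0.18 at day 14 (adjusted p = 1.29e-05 and 7.62e-06). Among probes above background on all 12 arrays 4 genes of the list fell at day 9 and 3 at day 14, and with normexp 5 fell at day 14.

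Between the days 4 of the 10 rose and 0 fell (1 was lower at an unadjusted limma p under 0.05), with a median of 0.04 against -0.09 over all genes. Of all genes 10.2% rose and 3.60% fell. Sp110, a nuclear body protein that is also induced by interferon, had levels of -1.23 to -0.86 at day 14, against -4.38 to -3.65 at day 9, and rose by 3.01 ± 0.18 (limma, adjusted p = 1.17e-07). Usp17la was at -3.95 to -3.40 at day 14 and at -5.50 to -5.01 at day 9, a rise of 1.59 ± 0.12 (adjusted p = 8.79e-07). Tcstv1 was at least 3.30-fold higher (adjusted p = 0.000355) by a probe that was not well above background on any day 9 array. Of its other probes 1 was not well above background on either day, and the other gave 1.59 ± 0.44. Tcstv3 was called higher (adjusted p = 0.00245), but it was not well above background on any day 9 array and was so on 2 of the 4 day 14 arrays, so no fold is given. The normexp correction left 1 of these calls, and the filter for probes above background on all 12 arrays left 2. Tcstv, Usp17l and Zscan4 genes have near-identical copies, so the reading of each is uncertain.

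**Figure D5:**
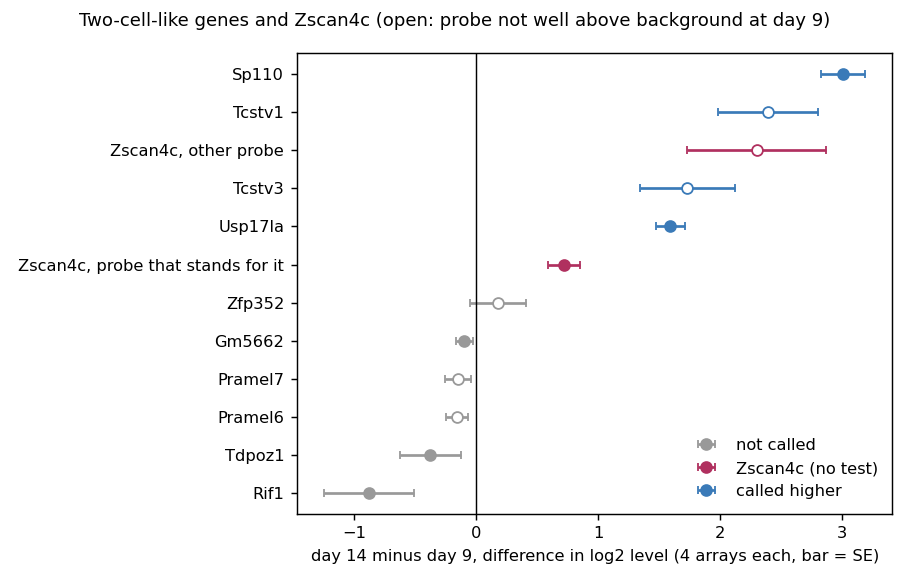
Difference in log2 level between day 14 and day 9 for the genes of the 2-cell-like list and both Zscan4c probes, with standard errors (4 arrays per group). Open points have a probe that was not well above background on any day 9 array, so their value is not a measured size. Sp110, at 3.01, and Usp17la, at 1.59, are called higher by probes measured at day 9.

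Of 11 tested relatives of the members by protein family, 5 fell and 0 rose at day 9, and 6 fell and 1 rose at day 14, with medians of -0.91 and -1.18. Of all genes 21.0% fell and 20.1% rose at day 9, and 24.0% fell and 22.8% rose at day 14. At an unadjusted limma p under 0.05, 2 relatives were higher at day 9. Khdc3, a KH-domain relative of Dppa5a, fell by 8.35 ± 0.23 at day 9 and fell by 8.30 ± 0.23 at day 14 (limma, adjusted p = 2.51e-11 and 2.02e-11). Zscan10, a SCAN zinc finger of stem cells, fell by 3.24 ± 0.10 at day 9 and fell by 3.58 ± 0.10 at day 14 (adjusted p = 5.21e-11 and 1.8e-11), and Zscan5b was at least 13.8-fold and at least 15.7-fold lower. The SCAN factors Zscan21 and Zscan22 were at 0.49 ± 0.05 and 0.81 ± 0.08 at day 14, under the fold threshold. Among probes above background on all 12 arrays 2 relatives fell at day 9. Between the days 1 relative rose and 0 fell, while 7 were lower at an unadjusted limma p under 0.05. Of all genes 10.2% rose and 3.60% fell between the days. The relative that rose was Spi1 (PU.1), the Ets factor of myeloid cells related to Spic, which was not well above background in mESC or at day 9 and is 1 of the 5 called lower at day 9 against mESC. Spi1 had levels of -5.11 to -4.76 at day 14 and was at least 1.80-fold higher than at day 9 (limma, adjusted p = 2.52e-08), a call lost with normexp.

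The red pulp macrophage list was read because Spic is a factor of those cells. Of 16 tested genes 6 rose and 2 fell at day 9 against mESC, and 12 rose and 1 fell at day 14, with medians of 0.35 and 7.17 on the signals as read. Of all genes 20.1% rose and 21.0% fell at day 9, and 22.8% rose and 24.0% fell at day 14. The 5 macrophage markers checked above are among the 16. The genes that fell, named after their values were seen, were Hmox1 and Cd68. Hmox1 was at -1.19 ± 0.09 at day 9 and -1.21 ± 0.09 at day 14, and Cd68 was at -4.11 ± 0.07 at day 9. Adgre1 (F4/80), the classical surface marker, was at -7.60 to -6.91 in mESC and -6.66 to -5.96 at day 9, not well above background, and at 1.69 to 2.05 at day 14. It was at least 153-fold higher at day 14 than in mESC, Tyrobp at least 300-fold and the transcription factor Maf at least 297-fold (limma, adjusted p = 1.34e-12, 2.59e-10 and 2.98e-13). These bounds hold for the brightest probe of each gene. The other Adgre1 probe, also not well above background in mESC, was at least 1.29-fold higher and the other Maf probe at least 10.5-fold. Vcam1 was at least 156-fold higher (adjusted p = 1.64e-11) by a probe that was not well above background in mESC, and its other probe, well above background on 2 of the 4 mESC arrays, gave 2.87 ± 0.93. At day 9, when Adgre1 was not well above background, Maf was already at least 101-fold and Vcam1 at least 18.6-fold higher than in mESC. The other Maf probe was at least 3.43-fold higher, and the other Vcam1 probe was not well above background at day 9. Between the days 12 of 16 rose and 0 fell, with 1 lower at an unadjusted limma p under 0.05. Of all genes 10.2% rose and 3.60% fell between the days. Spic itself was well above background on 1 of the 4 day 14 arrays, and its other probe was so on 0 of the 4. Restricting the test to probes above background on all 12 arrays left 1 gene higher at day 9 and 3 at day 14 than in mESC, and 3 higher at day 14 than at day 9, since it removes genes dim in mESC.

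The partners of Dppa3 in DNA methylation did not move as a block. Of 12 tested, 6 fell and 2 rose at day 9 against mESC and again 6 fell and 2 rose at day 14, with medians of -0.71 and -0.93. Of all genes 21.0% fell and 20.1% rose at day 9, and 24.0% fell and 22.8% rose at day 14. Uhrf1, which recruits Dnmt1 and is bound by Dppa3, had levels of 4.55 to 4.66 in mESC, 2.54 to 2.69 at day 9 and 1.90 to 2.10 at day 14. It fell by 1.97 ± 0.05 at day 9 and fell by 2.59 ± 0.05 at day 14 (limma, adjusted p = 1.98e-11 and 1.9e-12). Of the Tet dioxygenases, Tet1 fell by 2.72 ± 0.16 and Tet2 fell by 2.00 ± 0.09 at day 14, while Tet3 rose by 2.39 ± 0.05 (adjusted p = 1.66e-08, 1.03e-09 and 2.52e-12). Of the other Tet3 probes 1 was not well above background in mESC and was at least 1.28-fold higher at day 14, and the other gave 0.68 ± 0.79. Between the days 0 of the 12 were called at both thresholds, where 13.8% of all genes were called. In limma 10 of the 12 had an adjusted p under 0.05 with a difference under 1 in size, and at an unadjusted p under 0.05 the counts were 8 lower and 2 higher. Trim28, a corepressor of heterochromatin, differed by -0.45 ± 0.04 (limma, adjusted p = 5.15e-06) and Ehmt2 (G9a), a histone H3 lysine methyltransferase, by 0.25 ± 0.07 (adjusted p = 0.00549). The list's median was -0.30 against -0.09 over all genes, in the interval when Dppa3 differed by -2.71.

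The primed epiblast list, the state that follows the naive one, was mixed. Of 11 tested genes 5 rose and 4 fell at day 9, and 4 rose and 5 fell at day 14, with a median of -0.77 in both. For this list and the next, the shares of all genes were 20.1% rising and 21.0% falling at day 9. At day 14 they were 22.8% and 24.0%. Fgf5, the ligand that marks primed cells, was at least 10.9-fold higher at day 9 and at least 6.52-fold higher at day 14 than in mESC (limma, adjusted p = 4.17e-11 and 1.17e-10). Sfrp2, a secreted Wnt antagonist, rose by 6.09 ± 0.11 at day 14 (adjusted p = 6.04e-13), while Nodal fell by 5.98 ± 0.17 and Foxd3 fell by 3.18 ± 0.14 (adjusted p = 2.46e-11 and 1.07e-09). Of 10 tested genes of the Fgf and Erk pathway, 3 rose and 2 fell at day 9, and 5 rose and 2 fell at day 14. The medians were 0.61 and 0.95, against -0.16 and -0.19 over all genes. Egr1, an immediate early target of the pathway, rose by 7.07 ± 0.16 at day 14 and Etv5 fell by 3.65 ± 0.16 (adjusted p = 4.31e-12 and 7.93e-10), and the other Etv5 probe gave -4.48. Among probes above background on all 12 arrays 3 genes of this pathway rose at day 14.

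Dppa3 is also a marker of primordial germ cells, and of 12 tested genes of those cells 9 fell and 0 rose at day 9 and 10 fell and 0 rose at day 14, and in both 12 were lower and 0 higher at an unadjusted limma p under 0.05. The medians were -4.02 and -4.28. Of all genes 21.0% fell and 20.1% rose at day 9, and 24.0% fell and 22.8% rose at day 14. The germ cell markers Ddx4, Dazl, Nanos3 and Mael, checked above, are among the 12. Of the genes active in germ cells, Gtsf1 fell by 7.27 ± 0.19 and Dazl fell by 7.06 ± 0.30 at day 14 (limma, adjusted p = 9.48e-12 and 6.84e-10). The other Dazl probe gave -6.07 ± 0.16. Between the days 3 rose and 2 fell, where 10.2% of all genes rose and 3.60% fell. Dazl was called higher (adjusted p = 0.000538) by a probe that was not well above background on any day 9 array, at least 1.54-fold, while its other probe, well above background on 3 of those 4, gave 0.17 ± 0.16. Ifitm3, a membrane protein that is not restricted to germ cells, rose by 1.29 ± 0.09 (adjusted p = 3.9e-07), while Tfap2c fell by 1.37 ± 0.13 and Prdm1 fell by 1.20 ± 0.07 (adjusted p = 4.2e-06 and 1.38e-07). With normexp 1 of these genes rose and 0 fell.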

How the data were processed

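Total RNA of 12 samples, 4 each of mESC, day 9 and day 14, was read on 1-colour arrays. The authors extracted each array with Agilent Feature Extraction 12, per the submitters' processing notes, and the deposited processed signal is an intensity after background subtraction and spatial detrending, per the file headers, with no scaling between arrays. The deposited median and local background signals are uncorrected intensities, per the file headers. The series table held the same values, with 0 differences.

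Of 45018 spots 43379 were not controls and carried 41174 probes, of which 28223 were named through RefSeq accessions of GRCm38.p6. Spots marked as outliers were left out. Log2 processed signals were reduced by each array's 75th percentile. The test took the 28385 probes with a signal well above background in a group's arrays, 3 or more of 4. Each gene was read by its brightest tested probe, for 20875 genes in all, 15558 of them named and the rest counted by accession. Differences were fitted with limma 3.58.1 in R 4.3.3 over all 12 arrays, two-sided, with Benjamini-Hochberg adjustment over all genes. "Rose" and "fell" mean an adjusted p under 0.05 and an absolute log2 change of at least 1. A gene, or the probe shown for it, not above background throughout a group is given as a bound, the brighter group's mean against the dimmest signal well above background on each array of the dim group. On simulated data for day 14 against mESC (20865 genes, 200 changed by 2 on the log2 scale) 96% were recovered, with 3 false calls. The simulated noise was independent between arrays and held no slide effect, so it does not measure how reliable the real calls are.

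The members and the lists of pathway genes and markers were chosen with earlier results of these data known. The text names all members and their probes, of each list up to 4 called genes with the largest change at day 14 against mESC (or between the days) or, with none called, up to 2 of the highest mean, the 3 nearest profiles per member, and the cell type markers; a part of those list genes is given. Same-numbered replicates of 2 groups had deviations that correlated at -0.075 to 0.184. These values cannot exclude a pairing, but the labels state none, so the main fit used none. Alternatives were normexp (offset 50, on the median signal), quantile or median scaling, the series table, no filter or a filter on all 12 arrays, averaged probes, a fit on the 8 arrays of a comparison, robust variances with an intensity trend, the replicate block, and each array left out. The second probes with each array left out, and the member pairs by the other Dppa5a probe or with normexp, were added after seeing the data. The number of arrays limits the precision. Array positions refer to the older build mm9 and are not used here.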

Additional observations from a re-analysis of the deposited data

Results flagged for a closer look

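Single arrays stood apart from the other 3 of their group in 6 of 174 groups of values checked with Dixon's criterion for 4 samples for the gap over the range. Chance alone gives about 1 such group in 20. The other Spic probe was at 2.66 on mESC replicate 4, against 2.75 to 2.76 on the other mESC arrays. Ehmt2, a histone methyltransferase counted among the partners of Dppa3, was at 4.94 on mESC replicate 3, against 4.74 to 4.75. Esrrb was at -3.76 on day 14 replicate 4, against -3.97 to -3.95, and Ooep was at -3.43 on the same array, against -3.83 to -3.79. Sp110 was at -3.07 on mESC replicate 2, against -2.45 to -2.39. Trim28, the corepressor also counted among the partners of Dppa3, was at 3.93 on day 9 replicate 4, against 4.06 to 4.08.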

How the results depend on the processing

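Of 453 alternative values of the members' differences 417 stayed within the spread between replicates and 36 moved. All differences from mESC stayed negative, while between the days normexp turned the sign of Dppa2 (0.22), Spic (0.40) and Triml1 (0.26), values that were not called, and quantile or median scaling or normexp moved Utf1 between -0.14 and 0.19. With normexp, genes called numbered 4753 (2601 lower) at day 9 and 5849 (3060 lower) at day 14 against mESC, and 1233 (253 lower) between the days, where 19 list genes instead of 31 were called and the arrays of 1 member instead of 4 stayed apart. These compare with 8566 (4374 lower), 9772 (5014 lower) and 2879 (752 lower). Probes above background on all 12 arrays gave 5481, 6420 and 1303 calls, fewer genes being tested, with 409 lower and 18 list genes called between the days, and Spic could not be tested. Median scaling gave 1217 lower between the days, 41.1% of calls against 26.1%, and 63.6% against 51.3% at day 14 against mESC. The median of all genes was then -0.29, -0.51 and -0.28, against -0.16, -0.19 and -0.09 with the 75th percentile, and -0.14, 0.10 and 0.16 with normexp. Leaving out each array in turn gave 8542 to 8619 calls (4349 to 4412 lower, 70 to 72 list genes) at day 9, 9745 to 9794 (4992 to 5045 lower, 80 to 81 list genes) at day 14 and 2841 to 2925 (705 to 832 lower, 30 to 33 list genes) between the days, with 8, 8 and 4 to 5 members apart. With the replicate number as a block, although the labels state no pairing, 8565, 9774 and 2875 genes were called. Dim members, Spic above all, are limited by signal over background, and the causes of these shifts were not tested.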
